A study of Mus musculus
Mus spretus with 18 samples.

Results

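Fibronectin, tenascin C, periostin and fibulin-2 are secreted glycoproteins of the extracellular matrix, and CD44 and the integrin subunits α3, α6, α7 and β1 are cell surface receptors that bind matrix components. Their genes, Fn1, Tnc, Postn, Fbln2, Cd44, Itga3, Itga6, Itga7 and Itgb1, were chosen by name as 9 genes of the 38924 in the expression table, and every skipped exon (SE) event listed for them was taken. This gave 298 events on 138 alternative exons, out of 120601 autosomal SE events in all. An SE event pairs an exon with its 2 flanking exons, so 1 exon can appear in several events, and these share reads. The 9 genes lay on chromosomes 1 (Fn1), 2 (Cd44 and Itga6), 3 (Postn), 4 (Tnc), 6 (Fbln2), 8 (Itgb1), 10 (Itga7) and 11 (Itga3).

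Matrix glycoproteins and their receptors are a classical case of alternative splicing. Fibronectin dimers assemble into fibrils that cells hold through β1 integrins, and its extra domains A and B (EDA and EDB) are each encoded by 1 exon; plasma fibronectin, which hepatocytes secrete, lacks both. In the integrins α3, α6 and β1, alternative exons near the 3′ end of the coding sequence change the cytoplasmic tail, the part that meets the cytoskeleton.

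RNA-seq of F1 hybrids between a C57BL/6J mother and a SPRET/EiJ father was used, with 2 libraries per group and 18 in all. Cerebral cortex, heart, kidney, lung, spleen and liver came from female mice at 8 weeks of age, and embryonic stem cells (ESC) from 2 separate clones. The fibroblasts were 1 line derived from such a hybrid, treated for 4 h with 0.1 µM pladienolide B, an inhibitor of the splicing factor SF3B, or with the solvent DMSO. The C57BL/6J and SPRET/EiJ copies of a gene share the same nuclei in these hybrids, so a difference between the alleles was measured within each library. The labels of the liver samples name the mother's strain with other numbers (C57BL/7J and C57BL/8J), and by the study's account these libraries came from an earlier experiment on the same animals. For the fibroblasts nothing separates cultures from technical repeats, so p-values there measure the spread between these libraries only.

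Libraries of the tissues and ESC held 46558287 to 129496306 junction reads over the listed events (median 80580860), and the 4 fibroblast libraries 129067054 to 151755602. All 21 markers of the 6 organs and ESC were highest in their own sample type. The fibroblast markers Col1a1 and Col1a2 had mean values of 1065 and 1086 TPM (transcript abundance scaled by gene length and library total) under DMSO. Heart genes were also found in the lung libraries, where the cardiac myosin gene Myh6 had a mean TPM of 146.7, against 12046 in heart. The ESC libraries differed most from each other, with an SD of 0.79 for the log2 ratio of the replicates' TPM, against 0.172 to 0.415 in the other groups.

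The levels of the 9 genes differed widely between tissues, and lung had the highest mean for 5 of them (Tnc, Postn, Cd44, Itga3 and Itgb1). TPM are scaled by gene length, so levels can be set side by side between genes. In the 7 tissues, all 9 genes passed the test for a difference between tissues (limma on log2(TPM + 0.1), adjusted p under 0.05 and a range of group means of at least 1 on the log2 scale). So did 98.9% of the 21925 genes tested, so the count says nothing particular about these genes. Their ranges between the highest and the lowest tissue ran from 2.97 for Itgb1 to 9.02 for Postn on the log2 scale, against a median of 4.26 over all genes tested. In bulk tissue, fewer cells of a type and less RNA per cell cannot be told apart.

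Among the matrix genes, Fn1 had TPM of 40.1 and 47.1 in cortex, 42.6 and 68.7 in heart, 56.9 and 64.7 in kidney, 77.4 and 94.1 in spleen, 139.6 and 162 in lung, 466 and 553 in liver, and 861 and 800.1 in ESC. ESC and liver stood above every other tissue without overlap, whereas cortex, heart and kidney were not told apart pairwise in the limma fit (adjusted p = 0.0623 to 0.54). In the fibroblasts Fn1 reached 4342 and 3735 TPM under DMSO. Postn, which encodes periostin, a matrix protein of connective tissue, had 256 and 279 TPM in lung but 0.783 and 0.203 in ESC. Its levels were 26.6 and 29.3 in kidney, 11.8 and 14.6 in heart, 7.71 and 8.95 in spleen, 4.49 and 4.26 in liver, and 3.15 and 2.83 in cortex. Lung was thus far above the others, and heart and spleen (adjusted p = 0.15) and cortex and liver (adjusted p = 0.216) were not told apart.

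Tnc, which encodes the matrix glycoprotein tenascin C, was highest in lung (22.4 and 23.3 TPM) and kidney (11.2 and 9.06), a pair that did not pass the test (limma, adjusted p = 0.0751). It was at 4.76 and 4.2 TPM in cortex, 5.04 and 3.3 in spleen, 2.74 and 0.629 in ESC, 0.399 and 0.649 in heart, and 0.219 and 0.166 in liver. Fbln2, which encodes a matrix protein of elastic fibres and basement membranes, was highest in heart (54.1 and 64.5 TPM) and lowest in liver (0.692 and 0.772). Lung, ESC, cortex and spleen lay between 6.03 and 15 TPM and were not told apart (adjusted p = 0.197 to 0.866). In fibroblasts Tnc had 116 and 107 TPM and Fbln2 had 1991 and 1846 TPM under DMSO, above every tissue library.

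Among the receptors, Cd44, whose product binds hyaluronan, was at 72.9 and 66.3 TPM in lung and 65.9 and 72.6 in spleen (limma, adjusted p = 1 between them) and below 5 TPM in the other tissues, while the DMSO-treated fibroblasts had 105 and 105. The leukocyte genes Ptprc and Lyz2 were highest in these organs, in opposite order. Ptprc had a mean of 364.6 TPM in spleen and 23.9 in lung, and 0.0163 to 4.61 in the other tissues. Lyz2 had 1331 in spleen and 5302 in lung, and 0.0432 to 203.8 in the other tissues. The part of leukocytes in the Cd44 levels was not tested. Itga3 was highest in lung (201 and 209 TPM), followed by ESC (57.8 and 31.7) and kidney (45.7 and 42.3). Itga6, which encodes a laminin-binding subunit, was highest in ESC (154 and 68.3 TPM) and kidney (73 and 100.1), where the libraries overlapped, and lowest in liver (0.938 and 1.84). Itga7, the laminin-binding α subunit of muscle, had 155 and 142 TPM in heart, followed by 24.6 and 32.3 in lung and 19.4 and 19.5 in cortex. Itgb1, the β subunit that pairs with each of these α subunits, was expressed most evenly: 503 and 537 TPM in lung, 215 and 237 in heart, 235 and 249 in kidney, 205 and 249 in spleen, 189 and 119 in ESC, 84.1 and 91.6 in liver, and 66.7 and 65.5 in cortex. Heart, kidney and spleen were not told apart (adjusted p = 0.663 to 1).

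**Figure D1:**
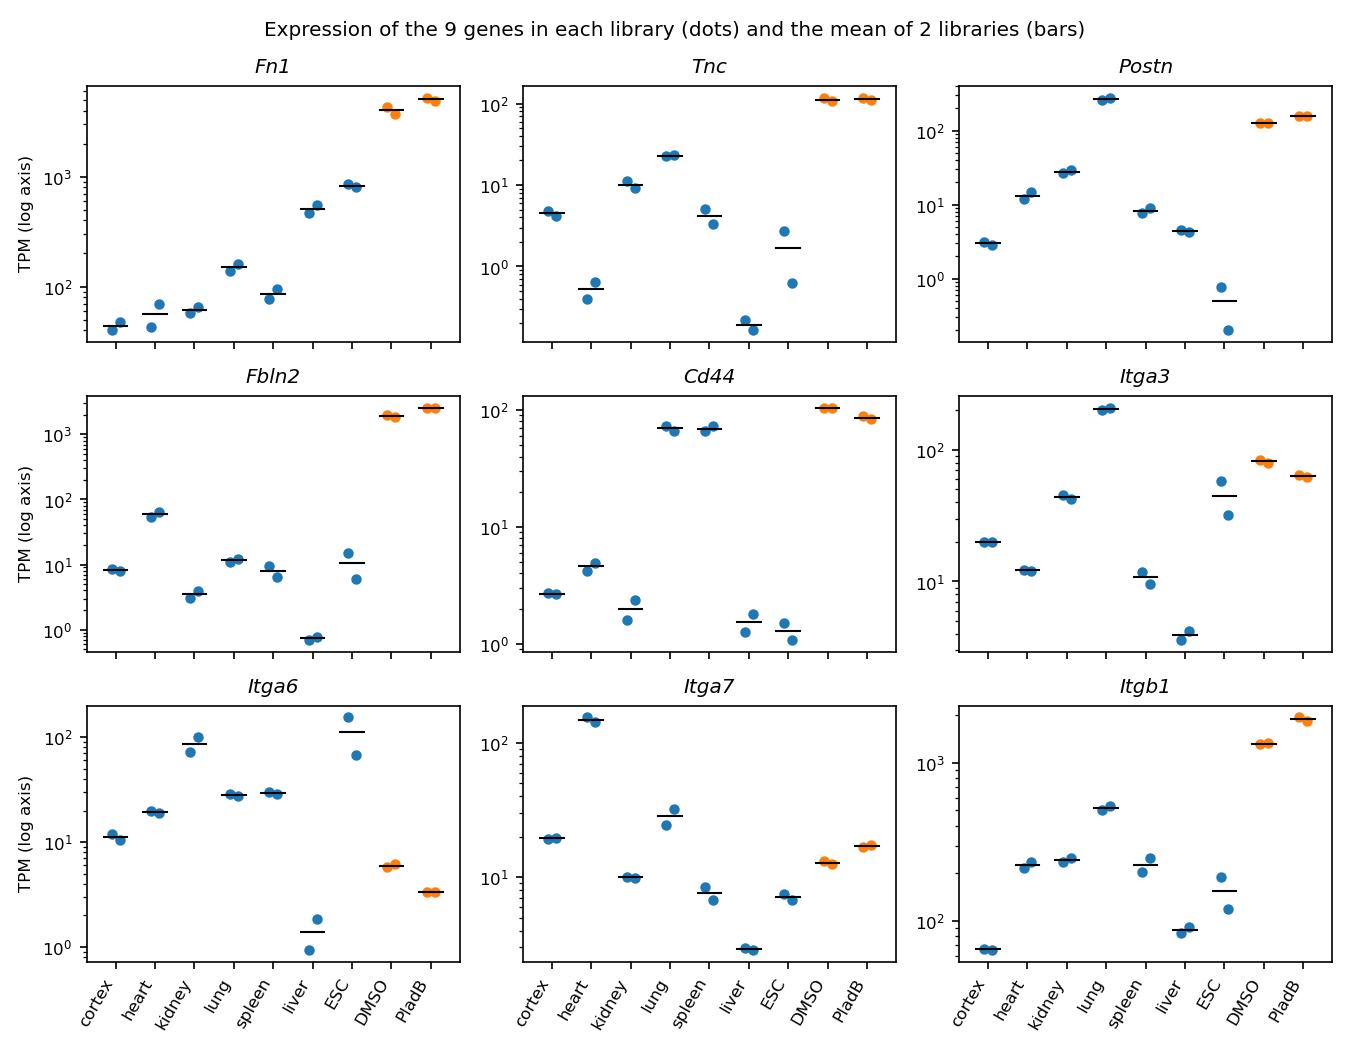
TPM (log axis) of the 9 genes in each library (dots; blue, tissues and ESC; orange, fibroblasts) with the mean of 2 libraries (bars). Postn and Itgb1 peak in lung among the tissues, Itga7 in heart, and Fn1, Tnc, Fbln2 and Itgb1 are higher in the fibroblasts than in any tissue.

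Other genes of cell-matrix adhesion also varied between tissues, as did most genes. All 41 other matrix glycoproteins, 30 of 30 other integrins and matrix receptors, and 22 of 22 adhesion adaptors passed the tissue test, with median ranges of 6.21, 5.2 and 3.6 on the log2 scale. Lung was the highest tissue for 16 of the 41 glycoproteins and 9 of the 22 adaptors, and spleen for 12 of the 30 integrins and receptors. The expression profile most like that of Itga7 over 8 groups (7 tissues and DMSO fibroblasts) belonged to Hspa1l (Pearson's r = 0.977), followed by Ldb3 (r = 0.975), a gene of the muscle Z-disc. For Fn1 the most like profiles were those of Ripply1 (r = 0.965) and Prdx4 (r = 0.947), for Postn those of Cbr2 (r = 0.958) and Arhgap29 (r = 0.943), and for Itgb1 those of Itpripl2 (r = 0.977) and Cnn1 (r = 0.975). These were the highest of 22595 genes compared, over points that share libraries and scaling.

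Most exons of the 9 genes were included almost throughout. Exon inclusion was expressed as percent spliced in (PSI), the share of transcripts that hold the exon, estimated from inclusion and skipping junction reads and given here from 0 to 1. Of the 138 exons, 137 had at least 20 junction reads in both libraries of at least 1 group. Of these, 112 were included above 0.9 in every such group and 11 were below 0.1 in every one, 8 of them in Cd44, whose variable exons are skipped in its standard form. Another 14 had a mean PSI between 0.1 and 0.9 somewhere. All 11 measured exons of Itga7 stayed at mean PSI values of 0.924 or higher.

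Exons of 7 genes differed in inclusion between tissues, and none of Cd44 or Itga7 was called. In the test across tissues (quasi-binomial model with dispersions moderated by limma, adjusted p under 0.05 and a difference of at least 0.1 between the highest and the lowest tissue), 10 of 60 events passed, each on another exon, which is 16.7%. The share over all 47963 events tested was 8%. The median swing of the 60 events, 0.0117, was not above the 0.0145 of all events, and the calls fell on 2 exons of Fn1, 1 of Tnc, 3 of Postn, and 1 each of Fbln2, Itga3, Itga6 and Itgb1. Pairs of tissues were tested for the named exons, with p-values adjusted over all events of a pair, and over the 21 pairs 6.09% of the tests on all events passed.

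The EDA exon of Fn1 (270 bp, chr1:71603660-71603929 in mm10, minus strand) had PSI values of 0.657 and 0.747 in ESC but 0.00267 and 0.00205 in liver. In between lay spleen (0.333 and 0.367), kidney (0.311 and 0.289), cortex (0.286 and 0.215), heart (0.168 and 0.214) and lung (0.157 and 0.161). ESC stood above and liver below all other tissues, and the swing of 0.700 had an adjusted p of 5.44e-13. The 7 tissues form 21 pairs, of which 14 passed for this exon; cortex against heart, kidney, lung or spleen did not pass. Depth was high for this event, with 533 to 109829 reads per library.

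The EDB exon (273 bp, chr1:71613763-71614035) was included at 0.536 and 0.653 in ESC and at 0.241 and 0.292 in cortex. In the other organs it was low: 0.0542 and 0.0623 in heart, 0.0353 and 0.0543 in spleen, 0.0155 and 0.0249 in kidney, 0.00872 and 0.0071 in lung, and 0.00216 and 0.00376 in liver. All 6 comparisons of ESC and the 5 of cortex with the other organs passed, and none among heart, kidney, lung, spleen and liver did, so 11 of 21 pairs were called (adjusted p = 1.76e-11 over all tissues). Liver transcripts thus held almost neither extra domain, and kidney and spleen held EDA with little EDB. In DMSO-treated fibroblasts EDA stood at 0.244 and 0.258 and EDB at 0.207 and 0.204, close to the levels of cortex.

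Periostin varies near its C terminus, where 3 short exons were alternative. The 81-bp exon (chr3:54380412-54380492, plus strand) had the widest swing of all 9 genes, 0.745 (adjusted p = 6.8e-12). It was included at 0.772 and 0.765 in cortex, 0.747 and 0.701 in kidney, 0.454 and 0.585 in spleen and 0.231 and 0.178 in heart, but at 0.0258 and 0.021 in lung and 0.0448 and 0.0402 in liver. Lung, with the most Postn RNA, thus skipped this exon almost entirely, and 12 of 15 pairs passed; ESC had too few reads.

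The 84-bp exon of Postn (chr3:54385671-54385754) was included at 0.286 and 0.195 in cortex and 0.272 and 0.247 in heart. It was at 0.0986 and 0.141 in spleen, 0.046 and 0.0485 in kidney, 0.0241 and 0.0223 in lung, and 0.00662 and 0.0463 in liver, with an adjusted p of 9.63e-08. This event has the alternative 78-bp exon as a flank, so skipping was counted only in transcripts that hold that exon. The values are thus not shares of all Postn transcripts. Both libraries of cortex and heart were above all others, although cortex against spleen did not pass. The 78-bp exon between these exons (chr3:54385208-54385285) was mostly included, from 0.706 and 0.737 in kidney and 0.762 and 0.761 in lung to 0.912 and 0.895 in cortex and 0.876 and 0.931 in spleen (adjusted p = 0.00466). Its swing was 0.182, and 4 of 21 pairs passed. The ESC values of this exon (0.692 and 0.926) rested on 22 and 26 reads.

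In Tnc, the alternative exons encode fibronectin type III repeats that are inserted into the middle of the protein, each 273 bp long. The repeat nearest the 3′ end, repeat D (chr4:63982651-63982923, minus strand), was included at 0.756 and 0.788 in kidney and 0.818 and 0.784 in lung, with no call between them. When the exon was paired with a more distant flanking exon, so that skipping removed the whole alternative block, its PSI was 0.643 and 0.476 in lung, 0.162 and 0.214 in kidney and 0.117 and 0.035 in spleen. Lung was above the others (adjusted p = 7.01e-04), and in DMSO-treated fibroblasts the same event reached 0.983 and 0.983. The neighbouring repeat C (starting at 63984460), in its most-read event, was at 0.319 and 0.143 in kidney and 0.512 and 0.627 in lung, but at 0.071 and 0.0678 in fibroblasts. Kidney against lung did not pass (quasi-binomial test, adjusted p = 0.321). This event has the alternative repeats D and B as flanks, so its values are not shares of all Tnc transcripts. With repeats D and A1 as flanks, repeat C had 0.535 and 0.662 in DMSO-treated fibroblasts. Repeat B also flanks repeat D in its most-read event.

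The 141-bp exon of Fbln2 (chr6:91259630-91259770, plus strand) was most included in heart, at 0.667 and 0.701, where Fbln2 RNA was also highest among the tissues. It had 0.556 and 0.403 in cortex, 0.419 and 0.434 in lung, 0.363 and 0.325 in spleen, 0.229 and 0.363 in kidney, 0.0741 and 0.158 in liver, and 0.28 and 0.0581 in ESC. The swing was 0.568 (adjusted p = 6.61e-05), and 5 of 21 pairs passed, each of them between heart and another tissue. Only 22 reads were behind the shallower liver value.

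In the receptors, the exons called across tissues were those of the cytoplasmic tails. The 81-bp exon of Itgb1 (chr8:128726983-128727063, plus strand), which encodes the tail of the striated muscle form β1D, had 0.413 and 0.397 in heart. Elsewhere it was close to 0, at 0.000573 and 0.000644 in cortex, 0.000207 and 9.38e-05 in kidney, 0.00582 and 0.00287 in lung and 0 and 0.000162 in spleen. Heart differed from each of these 4 tissues and no other pair passed at a difference of 0.1 (adjusted p = 1.72e-12 overall). The lung values were the highest after heart, in the libraries that also held the Myh6 signal given above, whose part in them was not tested. The tissue and fibroblast libraries had 777 to 27775 reads at this event.

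The 130-bp exon of Itga6 (chr2:71853534-71853663, plus strand), which encodes the tail of the A form, ranged from 0.838 and 0.814 in spleen and 0.758 and 0.781 in cortex to 0.119 and 0.137 in kidney. Heart had 0.685 and 0.624, lung 0.484 and 0.539, liver 0.315 and 0.424, and ESC 0.343 and 0.0402. The 2 ESC clones were far apart despite 1894 and 776 reads. The swing was 0.698 (adjusted p = 2.43e-04), and the fibroblasts, at 0.97 and 0.972, were above every tissue. For Itga3, the 142-bp exon of the A form (chr11:95046449-95046590, minus strand) was almost always included in lung (0.998 and 1) and ESC (1 and 0.974), less in heart (0.844 and 0.895) and least in cortex (0.458 and 0.494); it was not measured at 20 reads in kidney, spleen or liver. The adjusted p was 3.05e-06, and each pair except lung and ESC passed. A further exon of Itga3, of 211 bp (chr11:95062553-95062763), was not called across tissues but passed in 1 of 10 pairs, with 0.872 and 0.871 in heart against 1.000 and 0.978 in lung (difference -0.118, adjusted p = 0.034). Its values were 0.953 or higher in cortex, kidney and spleen.

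Cd44 had no event called across tissues. Its 207-bp exon (chr2:102831330-102831536, minus strand) was at 0.167 and 0.0189 in kidney and 0.084 and 0.0934 in lung, and at 0 to 0.0476 in the other organs. In the quasi-binomial test across tissues this exon had an adjusted p of 2.45e-04, but its swing of 0.084 was under the limit of 0.1. Lung libraries were also the only ones deep enough for the 120-bp exon starting at 102839358, included at 0.783 and 0.794, and for the 117-bp exon starting at 102846403, included at 0.943 and 0.793. Each of these events has a neighbouring variable exon as a flank (ending at 102837938 and 102845410). Skipping was thus counted only in transcripts that hold that variable exon, and these values are not shares of all Cd44 transcripts.

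**Figure D2:**
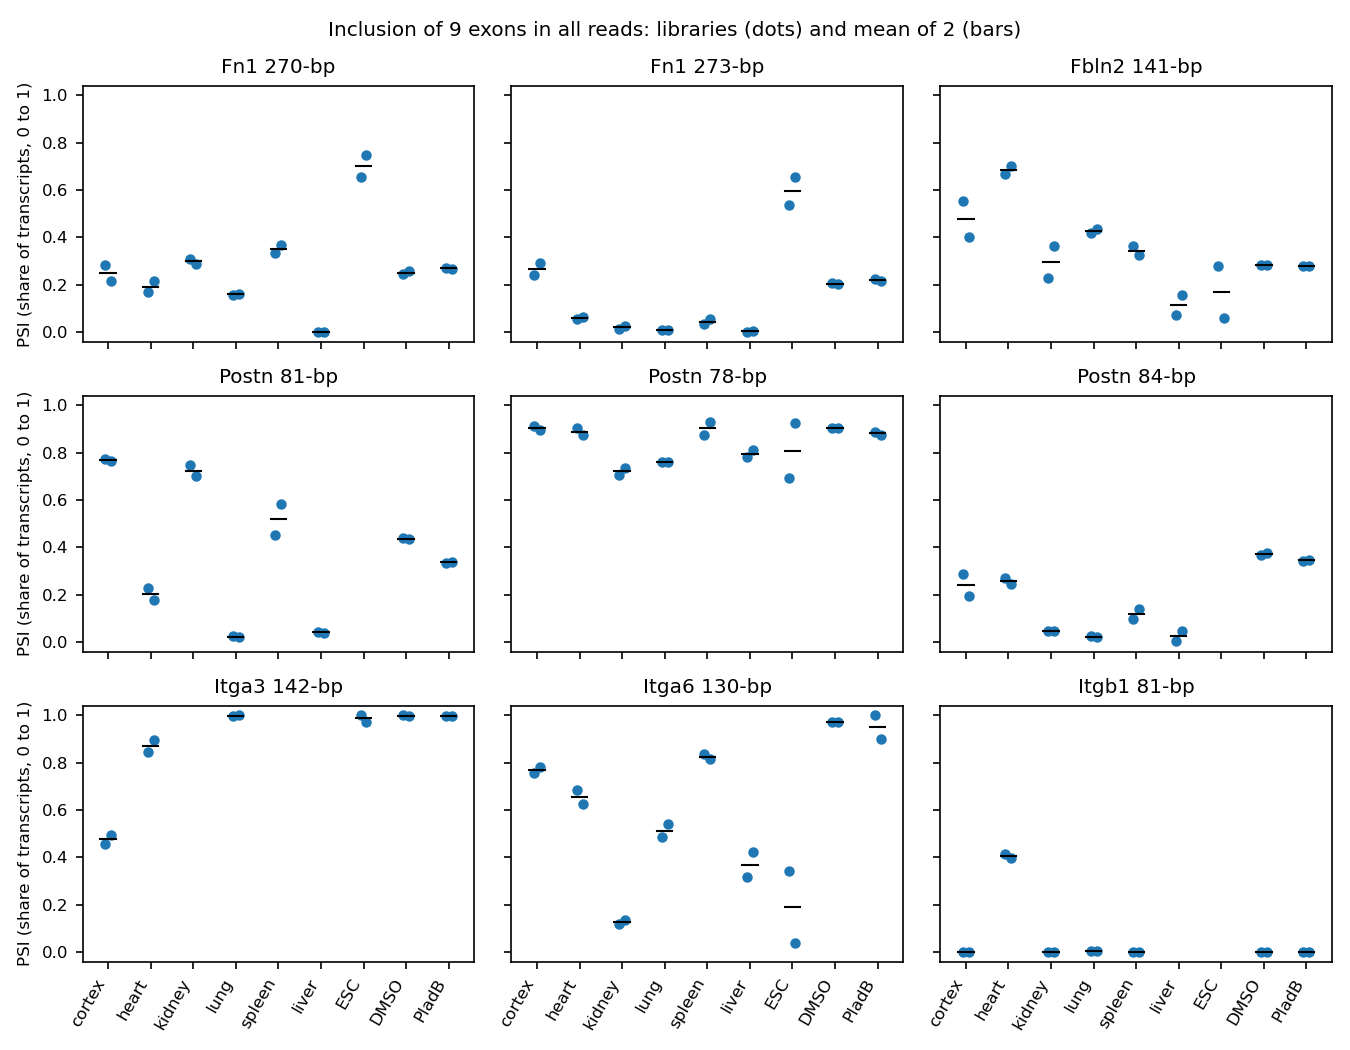
PSI (0 to 1) of 9 exons from all reads, by library (dots) with the mean of 2 (bars), where both libraries had at least 20 reads. Fn1 270-bp is highest in ESC and near 0 in liver, Postn 81-bp is near 0 in lung and liver, and Itgb1 81-bp is included in heart alone among the groups measured.

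The splicing regulators Esrp1 and Esrp2, found in epithelia, had mean TPM of 13.9 and 29.2 in lung and 12.4 and 38.3 in kidney. In liver they had 0.0519 and 54.2, the highest Esrp2 value, and in ESC 2.55 and 7.73. In cortex and in DMSO-treated fibroblasts Esrp1 was at 0.0320 and 0 and Esrp2 at 0.140 and 0.625. Rbfox2 had 133 TPM in cortex, 57.5 in heart and 7.85 in spleen. The epithelial gene Epcam had 176.8 TPM in ESC, 155.5 in kidney, 79.1 in lung, 1.09 in liver and 0.717 in cortex. Other epithelial genes set liver further apart from cortex: Cdh1 had 21.1 TPM in liver against 1.22 in cortex, and Krt8 169.5 against 1.05. In kidney Cdh1 was higher than in liver and Krt8 lower. The part of these regulators and of epithelial cells in the exon differences was not tested.

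Allelic differences between the C57BL/6J and SPRET/EiJ copies were found in few exons of the 9 genes, mainly in Postn and Tnc. In kidney 2 of 28 events were called (all events, 2.08%), in lung 4 of 57 (1.5%), in liver 1 of 15 (1.55%), in fibroblasts under DMSO 5 of 104 (2.21%) and under pladienolide B 6 of 157 (1.36%). No event was called in cortex (of 19, all events 1.48%), heart (of 27, 2.11%), spleen (of 23, 1.51%) or ESC (of 45, 0.0485%) by the same limma-moderated model, where 1, 2, 6 and 2 events had an unadjusted p under 0.05. The median absolute difference of these events was 0.00618 in lung, against 0.0112 over all events, and 0.0006 in DMSO-treated fibroblasts, against 0.00672. Of the 18 calls, 17 were higher on the C57BL/6J allele. They repeat a few exons over several groups and over events that share reads, so they are not separate findings. The direction of calls over all events was not counted.

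The 78-bp exon of Postn was included more often from the C57BL/6J allele in each of 8 conditions with enough reads, and in 16 of 16 libraries. In lung its PSI was 0.922 and 0.923 on the C57BL/6J allele against 0.659 and 0.660 on the SPRET/EiJ allele (difference 0.263, adjusted p = 1.28e-04). In kidney the values were 0.945 and 0.96 against 0.681 and 0.706 (0.259, adjusted p = 0.0147), and in liver 0.851 and 0.868 against 0.569 and 0.614 (0.268, adjusted p = 0.0461). The alleles did not overlap in these organs.

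In fibroblasts the same exon had 0.97 and 0.969 against 0.826 and 0.818 under DMSO (0.147, adjusted p = 7e-06) and 0.963 and 0.949 against 0.796 and 0.79 under pladienolide B (0.163, adjusted p = 1.33e-04). In 3 organs the difference missed the threshold without an overlap of the alleles. Cortex had 1 and 1 against 0.833 and 0.758 (adjusted p = 0.174), from as few as 29 reads per allele. Heart had 0.975 and 0.923 against 0.803 and 0.802 (adjusted p = 0.0813), and spleen 0.958 and 0.959 against 0.815 and 0.908 (adjusted p = 0.434). With the library as a block, which pairs the alleles, heart also passed (adjusted p = 0.00262; 1 event called in heart, where the blocked fit called 3.45% of all events).

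The difference for this exon was not shown to depend on the tissue. Over the 6 organs measured it ranged from 0.0966 in spleen to 0.268 in liver, and a test of allele by tissue gave an unadjusted p of 0.587 (adjusted p = 1). The share of this event's allelic reads from C57BL/6J was itself far from even in some organs: 6.13 and 9.83% in kidney, 38.9 and 38.4% in lung and 75.0 and 74.9% in liver. In kidney Postn transcripts thus came mostly from the SPRET/EiJ allele, and in liver mostly from C57BL/6J; these shares are descriptions without a test.

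The other exons of Postn differed between alleles in single conditions. The 81-bp exon was included in kidney at 0.263 and 0.194 on the C57BL/6J allele against 0.738 and 0.647 on SPRET/EiJ (difference -0.464, adjusted p = 0.0198). This was the only call that was lower on C57BL/6J, it rested on 36 and 37 C57BL/6J reads, and 32.3% of the event's reads could be assigned to an allele. In lung the alleles were within 0.00203 of each other, and a test of allele by tissue had an unadjusted p of 0.00823 (adjusted p = 1). The 84-bp exon, paired with the exon upstream of the 78-bp exon, had 0.803 and 0.749 against 0.419 and 0.409 under pladienolide B (0.362, adjusted p = 3.92e-04). This event has the same flanking exons as that of the 78-bp exon and shares its skipping reads, so it is not a separate finding. In its most-read event, joined to the 78-bp exon, the 84-bp exon lay the other way, without a call. The difference there was -0.0487 under DMSO and -0.0516 under pladienolide B. In spleen that event had 0.036 and 0.0451 against 0.13 and 0.162. This missed the threshold (adjusted p = 0.0954) and passed with the library as a block (adjusted p = 0.0193, with 2.59% of all events called).

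Repeat D of Tnc was also included more from the C57BL/6J allele. In lung it had 0.942 and 0.884 against 0.525 and 0.553 on SPRET/EiJ (0.374, adjusted p = 0.0233). In fibroblasts it had 0.935 and 0.951 against 0.808 and 0.856 under DMSO (0.111, adjusted p = 0.0134), and 0.958 and 0.947 against 0.838 and 0.773 under pladienolide B (0.147, adjusted p = 0.0158). The alleles did not overlap in these 3 conditions, but they did in kidney (0.709 and 0.789 against 0.824 and 0.75). Kidney had 21 reads for 1 allele, and a test of allele by tissue over kidney and lung had an unadjusted p of 0.00688 (adjusted p = 1). In the event whose skipping removed the whole block, the kidney alleles did not overlap, without a call. Mean PSI there was 0.251 on C57BL/6J against 0.134 on SPRET/EiJ in kidney, and 0.679 against 0.357 in lung. In DMSO-treated fibroblasts the alleles overlapped in that event, at 0.985 and 0.983 against 0.973 and 0.987. The allelic pattern of repeat D in kidney and fibroblasts thus depended on the flanking exons.

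Calls on other repeats of Tnc came from less-read events, which share reads with those of repeat D, and were also higher on C57BL/6J. In DMSO-treated fibroblasts repeat C had 0.701 and 0.896 against 0.347 and 0.356 in the event that joins repeats D and A1 on skipping (0.447, adjusted p = 0.0342), and repeat A2 had 0.996 and 0.993 against 0.758 and 0.706 (0.262, adjusted p = 3.1e-04). Under pladienolide B, repeat B had 0.971 and 0.981 against 0.742 and 0.708 (0.251, adjusted p = 0.00485). The most-read events of these exons were not called: repeat C had 0.0636 and 0.0619 on C57BL/6J against 0.110 and 0.100 on SPRET/EiJ under DMSO (difference -0.0422, adjusted p = 0.174) and a difference of -0.058 under pladienolide B (adjusted p = 0.273). Repeats B and A2 differed there by -0.00379 and 0.00364 under DMSO. When skipping removed the whole block, repeat B had 0.472 and 0.489 on C57BL/6J against 0.588 and 0.682 under pladienolide B, without a call. The directions of repeats C and B thus depended on the flanking exons. Of the reads at repeat D, 84.2 and 84.5% came from C57BL/6J in DMSO-treated fibroblasts and 74.4 and 71.2% in lung.

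The 207-bp exon of Cd44 was included at 0.209 and 0.182 from C57BL/6J in lung against 0.0509 and 0.0706 from SPRET/EiJ (0.135, adjusted p = 0.0197), although only 23.3 and 22.3% of the allelic reads were from C57BL/6J. The 120-bp exon of Cd44, in the event with a variable exon as a flank, lay the other way in lung, at 0.529 and 0.646 against 1 and 0.906. It missed the threshold (adjusted p = 0.121) and passed with the library as a block (adjusted p = 8.07e-04, with 3.17% of all events called).

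The extra domains of Fn1 had no allelic call in any group, and the values were close in most. In lung EDA had 0.114 and 0.119 on C57BL/6J and 0.108 and 0.113 on SPRET/EiJ, and in DMSO-treated fibroblasts 0.202 and 0.205 and 0.206 and 0.198. In ESC, however, it had 0.795 and 0.918 on C57BL/6J against 0.428 and 0.528 on SPRET/EiJ, a difference of 0.379. Which allele is which in ESC rests on the column order shared with the other tables. This did not pass in ESC alone (unadjusted p = 9.34e-04, adjusted p = 0.34) and did with the library as a block (adjusted p = 1.02e-104, a fit that called 1.84% of all events and took the spread from them, with no part from this event's own).

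A test of whether the allelic difference changed between tissues, added after the data were seen, called 1 of 47 events, and it was this exon (range 0.380, adjusted p = 0.0331). Over all events 0.0435% were called. The call was lost in 11 of 14 fits that each left out 1 library (adjusted p = 0.0685 to 0.247 in those), and without ESC the range was 0.0674 (adjusted p = 1), with 0 of 37 events called against 0.14% of all. EDB in ESC had 0.419 and 0.586 on C57BL/6J against 0.416 and 0.488 on SPRET/EiJ.

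The tails of the integrins and the Fbln2 exon had no allelic call. In heart the β1D exon of Itgb1 had 0.375 and 0.364 on C57BL/6J against 0.388 and 0.376 on SPRET/EiJ. The Fbln2 exon lay slightly lower on C57BL/6J in DMSO-treated fibroblasts, at 0.194 and 0.185 against 0.231 and 0.222 (difference -0.0365, adjusted p = 0.0084), under the limit of 0.1 for a call. In heart the same exon had 0.463 and 0.369 against 0.701 and 0.665 (difference -0.267), which was not tested, since only 16.9% of the reads were assigned to an allele and the PSI of both alleles together was more than 0.1 from that of all reads. The A exon of Itga6 had 0.112 and 0.127 against 0.0991 and 0.128 in kidney and 0.447 and 0.494 against 0.446 and 0.522 in lung. In ESC, both alleles of Itga6 followed the clone, at 0.323 and 0.339 in the first clone and 0.0194 and 0.0586 in the second.

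**Figure D3:**
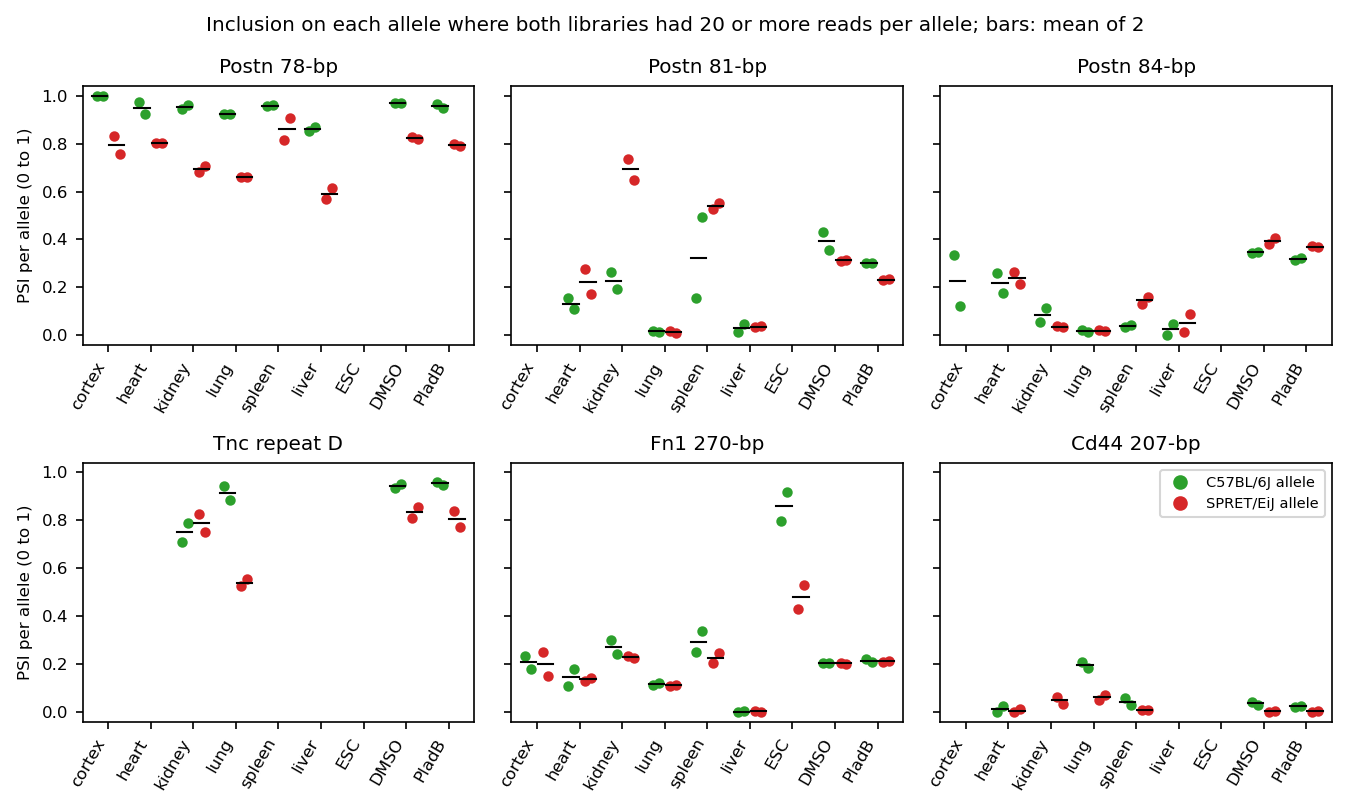
PSI (0 to 1) of 6 exons on the C57BL/6J (green) and the SPRET/EiJ (red) allele, by library (dots) with the mean of 2 (bars), where both libraries had at least 20 reads for that allele. Postn 78-bp is higher on the C57BL/6J allele in all 8 conditions shown, and Tnc repeat D, in its most-read event, in lung and fibroblasts but not in kidney.

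Pladienolide B changed the inclusion of few of these exons. In the comparison of treated and DMSO fibroblasts, 1 of 210 events was called, or 0.476%, against 7.61% of all events, by the same limma-moderated model. In all, 9 had an adjusted p under 0.05 and 22 an unadjusted p under 0.05, mostly with differences under 0.1, and the median absolute change was 2.61e-04, against 0.00836 over all events. The event called was repeat B of Tnc (chr4:63993027-63993299) when skipping removed the whole alternative block, at 0.825 and 0.77 under DMSO and 0.513 and 0.553 under pladienolide B (difference -0.264, adjusted p = 0.0167). Without the first DMSO library the difference was -0.237 and was no longer called (adjusted p = 0.117).

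The 81-bp exon of Postn lay just under the limit, at 0.441 and 0.434 under DMSO and 0.336 and 0.340 under pladienolide B (difference -0.0992, adjusted p = 6.26e-04). For Fn1, EDA moved from 0.244 and 0.258 to 0.272 and 0.268 (0.0192, adjusted p = 0.0237) and EDB from 0.207 and 0.204 to 0.223 and 0.218 (0.0148, adjusted p = 0.0148). The libraries of the groups did not overlap in either, and both differences were small. The Fbln2 exon had 0.284 and 0.284 under DMSO and 0.281 and 0.278 under the drug, from up to 74175 reads. None of 81 events showed a difference in the allelic effect between treatments, where all events gave 0.00736% and 1 of the 81 had an unadjusted p under 0.05 (limma-moderated interaction test). For the 78-bp exon of Postn the allelic difference was 0.147 under DMSO and 0.163 under the drug, a gap of 0.0158 (adjusted p = 1).

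In TPM as deposited, pladienolide B raised Fn1, Postn, Fbln2, Itga7 and Itgb1 and lowered Cd44, Itga3 and Itga6, whose direction turned when each library was centred on its median gene. Of the 9 genes, 8 passed limma's test, against 89% of 13577 genes; 5 were higher (all genes, 15.6%) and 3 lower (73.4%). In 1 limma fit that shared its spread with the tissues, only Itgb1 and Itga7 passed (adjusted p = 0.0197 and 0.0155), while Itga6 (0.063), Itga3 (0.164), Fn1 (0.193), Cd44 (0.279), Fbln2 (0.321) and Postn (0.558) did not. Itgb1 went from 1324 and 1328 TPM to 1939 and 1855 (log2 change 0.52 ± 0.04 SE, adjusted p = 8.9e-05). Fbln2 went from 1991 and 1846 to 2588 and 2566 (0.43 ± 0.05, adjusted p = 5.22e-04), and Itga7 from 13.2 and 12.5 to 16.8 and 17.4 (0.41 ± 0.06, adjusted p = 0.00134). The treated libraries were above both DMSO libraries in each.

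Fn1 went from 4342 and 3735 TPM to 5265 and 4888 (0.33 ± 0.08, adjusted p = 0.0146), a call that was lost without the first treated library (adjusted p = 0.0714), and Postn from 127 and 126 to 156 and 157 (0.31 ± 0.03, adjusted p = 4.94e-04). Tnc had 116 and 107 against 118 and 111 TPM and did not pass (0.04 ± 0.06, adjusted p = 0.538). The 3 lower genes were receptors: Cd44 with 105 and 105 against 88.3 and 83.5 TPM (-0.29 ± 0.04, adjusted p = 0.00197), Itga3 with 83.8 and 79.9 against 64.4 and 62 (-0.37 ± 0.05, adjusted p = 8.72e-04) and Itga6 with 5.75 and 6.12 against 3.35 and 3.37 (-0.80 ± 0.08, adjusted p = 3.15e-04). With the libraries centred, Cd44 was at 1.16, Itga3 at 1.08 and Itga6 at 0.65.

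TPM express a share of each library, and the shares moved together. The median of the changes of all genes was -1.15 on the log2 scale, and the difference between the library medians, which the centring takes off, was -1.45. The nuclear RNA Malat1 went from 104.1 to 5243 TPM. With each library centred on its own median, all 9 genes were higher, from 0.65 for Itga6 to 1.97 for Itgb1. The directions of Cd44, Itga3 and Itga6 therefore hold only relative to the library total, whereas all 9 changes lay above the median change. The fibroblast marker Pdgfrb fell from 217.4 to 44.0 TPM.

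**Figure D4:**
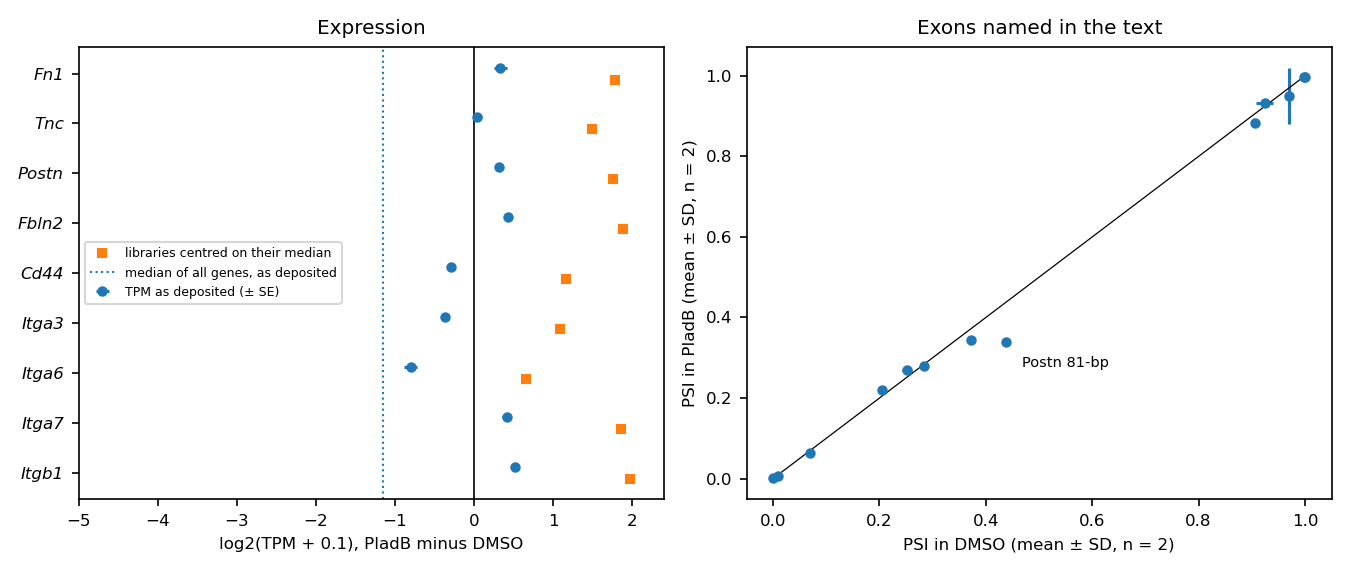
Left, log2 change of the 9 genes (pladienolide B minus DMSO) from TPM as deposited (blue, ± SE) and with each library centred on its median (orange); the dotted line marks the median of all genes, -1.15. Right, PSI of the named exons in both treatments (mean ± SD of 2 libraries) with the line of equality; Postn 81-bp lies furthest below it.

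Of 29 other matrix glycoproteins tested under the drug, 15 were higher, 9 lower and 5 did not pass, and their median change was 0.19, with 26 above the median of all genes. Of 20 other integrins and matrix receptors, 6 were higher and 8 lower (median -0.01, 14 above the median gene). Adhesion adaptors, which link integrins to actin, had 13 of 18 lower and 2 higher (median -1.08, 9 of 18 above the median gene), beside the median of -1.15 over all genes. The 4 splicing regulators tested, with a median of -0.84, were all lower as deposited.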

How the data were processed

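Libraries of 7 tissues and of treated fibroblasts were compared, 2 per group. The authors mapped reads with HISAT2 2.0.1 to mm10 and to a SPRET/EiJ version of it, and assigned each read to the strain genome it matched better. Cortex, heart and kidney were sequenced with longer reads that the authors trimmed to the length used for spleen, lung and ESC; this cannot be told apart from tissue. The tables the authors deposited hold inclusion and skipping junction read counts for each SE event, from all reads and from each allele; these count lists, and the authors' PSI columns, were of unit other, and the effective lengths of both forms, deposited by the authors' rMATS run, were taken as a score. TPM per gene were deposited by the authors, computed by them from mapped reads. The file headers number the alleles without naming them; the first was taken as C57BL/6J, following the study's methods and the maternal Meg3 and Rian and paternal Snrpn and Sgce reads in organs and fibroblasts, and ESC, where these genes were not informative, was read in the same order. The authors' columns of allelic or treatment differences and p-values were not used, nor were 2243 retained intron events, of which 0 were in these genes.

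PSI was recomputed as length-normalized inclusion over inclusion plus skipping. Events with at least 20 reads in both libraries compared were fitted over the whole table with a quasi-binomial model, dispersions being moderated with limma 3.58.1 (R 4.3.3) toward a trend with depth and not allowed under 1. F tests were adjusted by Benjamini-Hochberg, and a call needed an adjusted p under 0.05 and a difference of at least 0.1. Allelic events were kept where PSI of both alleles together was within 0.1 of that of all reads. TPM were tested with limma on log2(TPM + 0.1), for genes with TPM of at least 1 in 2 libraries; fold changes on this scale understate changes of low genes. No read depth is known behind TPM.

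All 9 genes are described, and an exon is named by its most-read event where its mean PSI was 0.1 to 0.9 in some group or where it was called; single values outside this rule were chosen after they were seen. The members and gene lists were chosen with earlier results of these data known. Alleles of 1 library are paired by design (deviations correlated at 0.0285 to 0.633, 7 of 9 over 0.1). The organs came from 2 animals, but the labels do not tie replicate numbers to an animal, and same-numbered libraries of different tissues did not deviate together (-0.102 to 0.0796). Scripts were tested on simulated data.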

Additional observations from a re-analysis of the deposited data

Results flagged for a closer look

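In the fit of all libraries, the allelic difference in EDA inclusion of Fn1 was called as differing between the 7 tissues. It was 0.379 in ESC and -8.25e-04 in liver, a range of 0.38, and the interaction test gave an adjusted p of 0.0331. Both ESC clones had more EDA on the C57BL/6J allele, with 0.795 and 0.918 against 0.428 and 0.528. The test was added after the data were seen, and the call was lost in most fits that each left out 1 library. Over those fits, lost or kept, the range was 0.368 to 0.399. Fits without either ESC replicate kept the call, but they hold no spread between the clones. They therefore cannot show that the call is stable. The clones are separate cell lines, so clone and replicate cannot be told apart.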

How the results depend on the processing

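Of 92 counts of calls recomputed under other settings, 79 stayed within 1.5 times. Alleles are paired within a library, and with the replicate block 1 allelic event was called in each of heart, spleen and ESC, against 0 without it; in 7 of 9 groups that fit took its spread from the prior alone, so its p-values rest on all events. With a minimum of 50 reads kidney kept 1 of 2 calls. With 1 event per exon the allelic calls were 2 under DMSO and 2 under pladienolide B, and the drug changed 0 events. Leaving out 1 library at a time gave 10 to 14 tissue calls, 1 to 2 drug calls, 0 to 1 calls of allele by tissue and 7 to 8 genes changed by the drug; without ESC, allele by tissue gave 0 calls. In 1 limma fit over all libraries 2 genes passed for the drug, 2 higher and 0 lower. With libraries centred on their median 9 were higher and 0 lower, and Cd44 (1.16), Itga3 (1.08) and Itga6 (0.65) changed sign; Tnc ranged from -0.02 to 0.10 when 1 library was left out. The cause of these changes was not tested. Tissue replicate numbers are only numbers, and a block on them gave 12 tissue calls. The planned edgeR alternative was not run, since the deposited lists are not read as a count table. Allele-specific values with under 40 reads are limited by depth, and 2 libraries per group leave few degrees of freedom.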
